A study of Papaver somniferum with 9 samples.

Results

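Unigenes above an expression limit in the root only were examined in the opium poppy cultivar B1 (Papaver somniferum). A unigene is a non-redundant transcript sequence of the authors' own full-length transcriptome. The 200 members were chosen by their RPKM values (reads scaled to the length of the unigene and to the mapped reads of the sample), which were above 1 in all 3 root samples and at or under 1 in all 3 stem and all 3 leaf samples. Of the 61856 unigenes measured, 277 met these limits, and the 200 with the highest lowest root value were taken. The 9 samples came from plants of 1 field plot at the filling stage, after the flowers had fallen, with no treatment. The root samples were taken from an underground section, the stem samples from the middle of the stem, and the leaf samples from the top leaf. All 9 belong to B1, the cultivar whose pooled RNA also built the reference, so unigenes present only in other cultivars were not measured. By the study's methods the 3 samples of an organ were collected independently. Neither the methods nor the labels say whether each was 1 plant, so p-values measure the spread between these samples.

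The root takes up water and mineral ions through its epidermis and cortex, and the endodermis controls their passage to the vascular tissue. It also anchors the plant, stores reserves and meets soil organisms. In opium poppy the root is known for the benzophenanthridine alkaloid sanguinarine, while morphine collects in the latex of aerial organs. Latex is held in laticifers, cells that run along the phloem of root, stem and leaf. Genes with transcripts in 1 organ are of interest because alkaloid formation, transport and storage in this species are divided among organs and cell types.

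The IDs of the unigenes are not paired with gene names in the files, and none of the 61856 matched the RefSeq gene table of assembly ASM357369v1 (0 matched). The labels root, stem and leaf were therefore not checked against marker genes, and no role is given to any member. Every ID carries its own locus number, and no member has a locus number next to that of another member (0 of 200). What the order of these numbers stands for is not stated. The count for other sets of 200 unigenes was not taken, so nothing is read from it. No unigene sequence is shown. Unigenes are named by ID only, so that they can be looked up.

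PB.61032.1 ranked first, with 127.5, 988.48 and 108.06 RPKM in root replicates 1, 2 and 3, against 0.26, 0.55 and 0.17 RPKM in stem and 0, 0 and 0 in leaf. It also had the largest mean over the root samples of all members, 408.0 ± 502.8 RPKM (SD, n = 3), and most of that mean came from root replicate 2. PB.61683.2 ranked second and had the opposite order among the roots, with 371.65, 50.06 and 540.43 RPKM in root replicates 1, 2 and 3. It had 0.62, 0 and 0 RPKM in stem and 0, 0.41 and 0.27 in leaf. PB.16805.3, at rank 3, was even, with 31.83, 39.59 and 28.17 RPKM in root, against 0.02, 0.06 and 0 in stem and 0.03, 0.05 and 0.20 in leaf. In each of these members the lowest root sample was at least 80.7 times the highest stem or leaf sample. Since these values chose the members, they are given as a description and were not tested.

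Such high levels were rare among the members. The lowest root value was above 15 RPKM in 8 of the 200, above 4 and up to 15 in 14, above 2 and up to 4 in 35, and at or under 2 in 143 (71.5%). The median of the lowest root value was 1.46 RPKM (range 1.15 to 108.06), and the median of the highest root value was 3.21 RPKM. The last member, PB.5982.1, had 1.67, 1.57 and 1.15 RPKM in root, against 0.49, 0.40 and 0.34 in stem and 0.37, 0.31 and 0.34 in leaf. The first unigene outside the list, PB.12192.1, had 1.35, 1.73 and 1.14 RPKM in root, against 0.95, 0.47 and 0.33 in stem and 0.23, 0.34 and 0.63 in leaf. The list therefore ends where root values differ little from the limit, and another 77 unigenes met the limits below it.

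**Figure D1:**
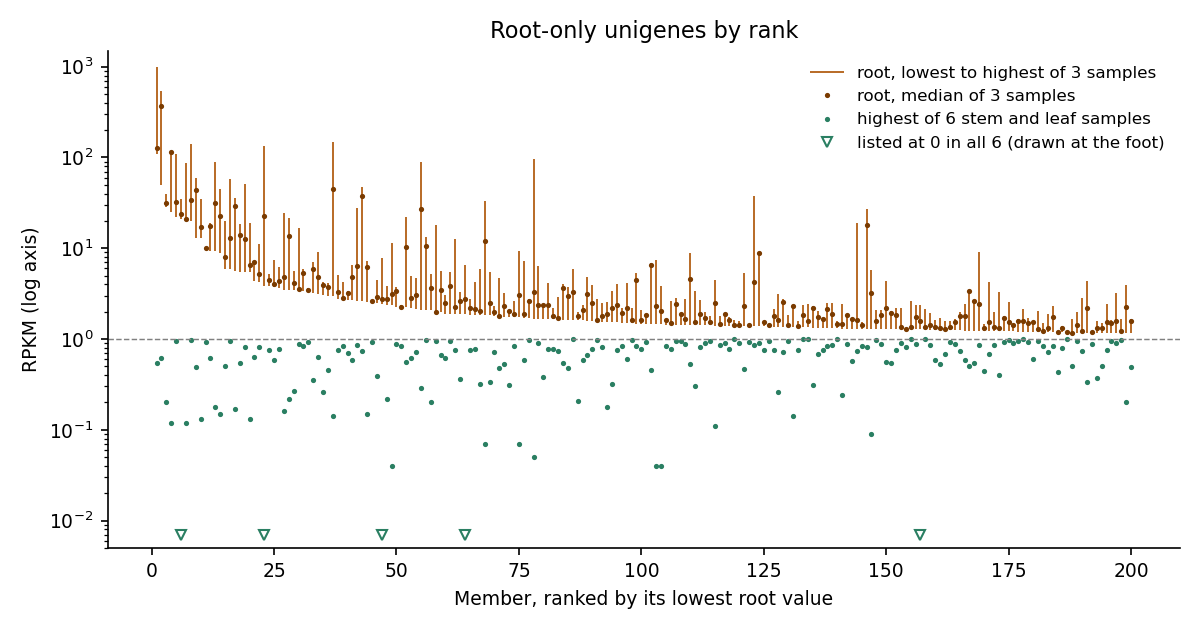
RPKM on a log axis for the 200 members, ranked by their lowest root value. Vertical lines run from the lowest to the highest of 3 root samples with their median as a point, green points are the highest of 6 stem and leaf samples, triangles mark the 5 members listed at 0 in all 6, and the dashed line is the limit of 1 RPKM. Lowest root values fall from 108.06 to 1.15, while the green points lie at or under the limit, and the highest stem or leaf value has a median of 0.735.

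How far the members stood above their stem and leaf values varied widely. The highest stem or leaf value had a median of 0.735 RPKM, and it was above 0.9 in 44 members and at most 0.1 in 12. In 121 members (60.5%) all 6 stem and leaf values were above 0, so most members had some signal outside root. In 79 members (39.5%) the lowest root value was under 2 times the highest stem or leaf value. PB.26245.1 was the closest, with 1.18, 1.18 and 1.17 RPKM in root, against 0.70, 0.99 and 0.53 in stem and 0.56, 0.42 and 0.75 in leaf. Its lowest root value was 1.18 times its highest stem value. It was also the member with the most even root values, and the limit of 1 RPKM falls between close values of it. At the other end, the lowest root value was at least 10 times the highest stem or leaf value in 33 members, leaving out those listed at 0 in all 6 samples.

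PB.60632.1 was the first member listed at 0 in all 6 stem and leaf samples, and it had 34.73, 24.01 and 21.09 RPKM in root. The other 4 members listed at 0 throughout stem and leaf are named because of their values. They were PB.61778.1, PB.57620.1, PB.57546.1 and PB.38838.1, with 22.38, 135.15 and 3.82 RPKM in root replicates 1, 2 and 3 in the first of these and root values between 1.28 and 7.90 RPKM in the other 3. These 5 members stood at ranks from 6 to 157. The files hold no read counts, so a value listed at 0 cannot be taken as absence of the transcript, and no fold change is given against it. In whole organs, fewer cells of a type and less RNA per cell cannot be told apart.

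The members were often uneven among the 3 root samples. The ratio of the highest to the lowest root value had a median of 1.82 over the members, against 1.70 over all 26949 unigenes above 1 RPKM in every root sample. A ratio of at least 3 occurred in 55 members (27.5%), against 14.7% of those unigenes, and a ratio of at least 10 in 11 members (5.5%), against 2.20%. Members were ranked by their lowest value, so a member with 1 low root sample stands lower on the list than its mean would place it. PB.26213.3 had the largest ratio, 57.0, with 1.68, 95.7 and 3.26 RPKM in root replicates 1, 2 and 3, against 0, 0.05 and 0 in stem and 0, 0 and 0 in leaf. It ranked 78, although its root replicate 2 was among the high values of the list.

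The uneven members did not share 1 high sample. Of the 11 members with a ratio of at least 10, the highest value fell in root replicate 1 in 4, in replicate 2 in 4 and in replicate 3 in 3. PB.57011.1, chosen after its values were seen, had 2.96, 44.77 and 148.5 RPKM in root replicates 1, 2 and 3, while PB.61693.1, chosen likewise, had 90.22, 27.05 and 2.09. The direction was thus opposite in these members. A single high sample, at least 3 times the next, occurred in 22 members, and in 15 of them it was root replicate 2. A single low sample, with the next sample at least 3 times as high, occurred in 19 members, and in 15 of them it was root replicate 3. Over all members root replicate 2 was the highest in 45.5%, against 40.1% of unigenes above 1 RPKM in every root sample, and root replicate 3 was the lowest in 54.5%, against 58.4%. Root replicate 3 was thus the lowest sample in most members and in most of those unigenes.

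The members with higher root levels had the larger ratios. Over the 8 members whose lowest root value was above 15 RPKM, the median ratio of highest to lowest root sample was 4.80. It was 3.43 over the 14 members above 4 and up to 15 RPKM, 2.19 over the 35 above 2 and up to 4, and 1.71 over the 143 members at or under 2 RPKM. The first 2 members carried 26.8%, 37.2% and 43.4% of the members' summed RPKM in root replicates 1, 2 and 3. Together the 200 members took 0.194%, 0.311% and 0.158% of the summed RPKM of root replicates 1, 2 and 3, against 0.00930%, 0.00808% and 0.00666% in stem and 0.00451%, 0.00457% and 0.00521% in leaf. Even in root they are a small part of the transcripts measured, and by number they are also a small part, 200 of 61856 unigenes. The summed RPKM of all unigenes ran from 898884 to 1092543 per sample, and read depth cannot be read from these values.

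The replicate numbers of root and stem were also compared. Where neither tissue had a tie for its highest sample, the same replicate number was highest in root and stem in 88 of 191 members (46.1%), against 58.3% of 26803 unigenes above 1 RPKM in every root sample. In the other 103 of these members the numbers differed. The labels do not say that a number marks a shared plant.

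Below the limit of 1 RPKM, the members had more signal in stem than in leaf. Their mean was 0.451, 0.435 and 0.364 RPKM in stem replicates 1, 2 and 3, against 0.235, 0.247 and 0.284 RPKM in leaf replicates 1, 2 and 3. All 3 stem means were above all 3 leaf means. Over all 22912 unigenes at or under 1 RPKM in the same 6 samples, the means were 0.157, 0.140 and 0.119 RPKM in stem, against 0.148, 0.135 and 0.153 in leaf, and there the tissues overlapped. The members lie higher under the limit than those unigenes in both tissues, so the sets differ in level as well. Of the members, 25, 20 and 33 were listed at 0 in stem replicates 1, 2 and 3, against 51, 47 and 51 in leaf replicates 1, 2 and 3.

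**Figure D2:**
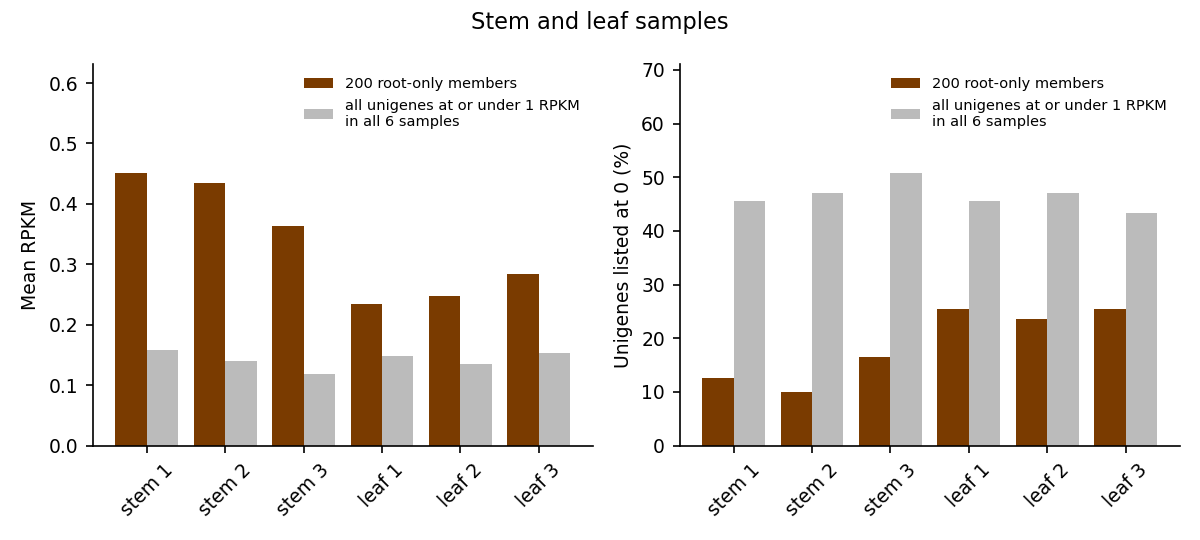
Mean RPKM (left) and share of unigenes listed at 0 in percent (right) in each of 3 stem and 3 leaf samples, for the 200 members (brown) and for all 22912 unigenes at or under 1 RPKM in all 6 samples (grey). The members' means are 0.364 to 0.451 in stem and 0.235 to 0.284 in leaf, while the grey bars overlap between stem and leaf.

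Single members showed the same direction. The mean over stem was above the mean over leaf in 149 members, below it in 42 and equal in 9. Among the 195 members with any value above 0 in stem or leaf, the highest of the 6 samples was a stem sample in 159 and a leaf sample in 36. All 3 stem samples lay above all 3 leaf samples in 51 of the 200 members (25.5%), against 4.42% of all unigenes at or under 1 RPKM in stem and leaf and 13.7% of all 61856 unigenes. All 3 leaf samples lay above all 3 stem samples in 1 member (0.5%), against 6.37% and 12.9%. That member, PB.5582.3, named for this value, had 2.07, 1.57 and 1.30 RPKM in root, 0.21, 0.12 and 0.15 in stem and 0.48, 0.36 and 0.98 in leaf. A value listed at 0 in all 3 leaf samples was found for 29 members, and in all 3 stem samples for 6. Of these 6, 5 were also at 0 in leaf and PB.39444.1, named for this reason, had 0, 0 and 0.14 RPKM in leaf.

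The excess of stem over leaf was seen at most root levels. The mean over stem was above that over leaf in 104 of the 143 members with a lowest root value at or under 2 RPKM, in 27 of the 35 above 2 and up to 4, and in 14 of the 14 above 4 and up to 15. Above 15 RPKM it was so in 4 of 8, and the reverse in 3. From the lowest to the highest of these 4 classes, the median of the stem means was 0.483, 0.333, 0.208 and 0.132 RPKM, and the median of the leaf means was 0.277, 0.123, 0.00833 and 0.0200 RPKM. Members high in root therefore had less in stem and leaf than members near the limit, within values that the rule had capped.

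Stem was then tested against leaf, the contrast that did not choose the members apart from the limit of 1 RPKM in both. limma was fitted to log2(RPKM + 1) of the 6 stem and leaf samples, over 47493 unigenes above 0.1 RPKM in at least 3 of them, and a unigene was called at a Benjamini-Hochberg adjusted p under 0.05. Of the 200 members 156 could be tested, 16 of these through their stem samples alone and 0 through their leaf samples alone. Higher in stem were 15 members, 9.62% of those tested, against 5.59% of all unigenes tested and 1.03% of the 9231 tested unigenes at or under 1 RPKM in stem and leaf. Lower in stem were 0 members, against 8.30% and 2.58%, and at an unadjusted p under 0.05 limma had 39 members higher and 1 lower. Of the 15 called members, 9 had no leaf value above 0.1 RPKM and so were tested through their stem samples alone, where they were high, and these shares are given as a description only. With all 61856 unigenes in the fit, so that every member was tested, limma called 15 of the 200 members higher (7.5%) and 0 lower in stem, with 45 and 1 at an unadjusted p under 0.05. In that fit 3.69% of all unigenes were higher and 5.57% lower, and 0.751% of those at or under 1 RPKM in stem and leaf were higher. Of these 15 members, 11 were also called with the filter on the stem and leaf samples. With the filter set over all 9 samples instead, every member was tested and the same 15 were called, against 5.07% of all unigenes tested. The median log2 difference of stem minus leaf was then 0.15 over the 200 members and 0.05 over all unigenes tested. Since the added 1 RPKM is larger than most of these values, the differences understate the change. Leaf RNA had a lower integrity than stem RNA in the study's quality records, and this and the organ cannot be told apart.

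PB.53580.1 had the smallest adjusted p of the members. It had 0.79, 0.74 and 0.92 RPKM in stem replicates 1, 2 and 3, against 0.08, 0.20 and 0.06 RPKM in leaf replicates 1, 2 and 3. Every stem sample was at least 3 times every leaf sample. The difference was 0.71 on the log2(RPKM + 1) scale (standard error 0.13), with an adjusted p of 0.0110 by limma. In root this unigene was even, at 9.99, 10.04 and 10.31 RPKM.

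PB.15426.2 had 7.11, 4.41 and 7.30 RPKM in root, 0.46, 0.41 and 0.64 in stem and 0.03, 0.03 and 0 in leaf. Its stem and leaf samples did not overlap, and the difference was 0.56 on the same scale (standard error 0.10, adjusted p = 0.0129 from limma). It had no leaf value above 0.1 RPKM and so was tested through its stem samples alone, where it was high. Its p-values are given as a description only. Its adjusted p from limma ran from 0.000453 to 0.140 over the 13 alternatives in which it was tested. It was above 0.05 in 5 of them, each omission of a leaf sample included, where the difference was 0.54 to 0.56. With any stem sample left out, PB.15426.2 did not pass the filter and was not tested. In both unigenes every stem sample lay above every leaf sample, while stem below root was fixed by the choice of the members. The 15 called members had stem means between 0.400 and 0.860 RPKM and leaf means between 0 and 0.223 RPKM, and their adjusted p-values from limma ran from 0.0110 to 0.0421. In all 15 the stem samples lay above the leaf samples, and 2 of them were listed at 0 in every leaf sample. They stood at ranks from 11 to 190 (median 61), and 3 of them had a lowest root value above 4 RPKM.

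**Figure D3:**
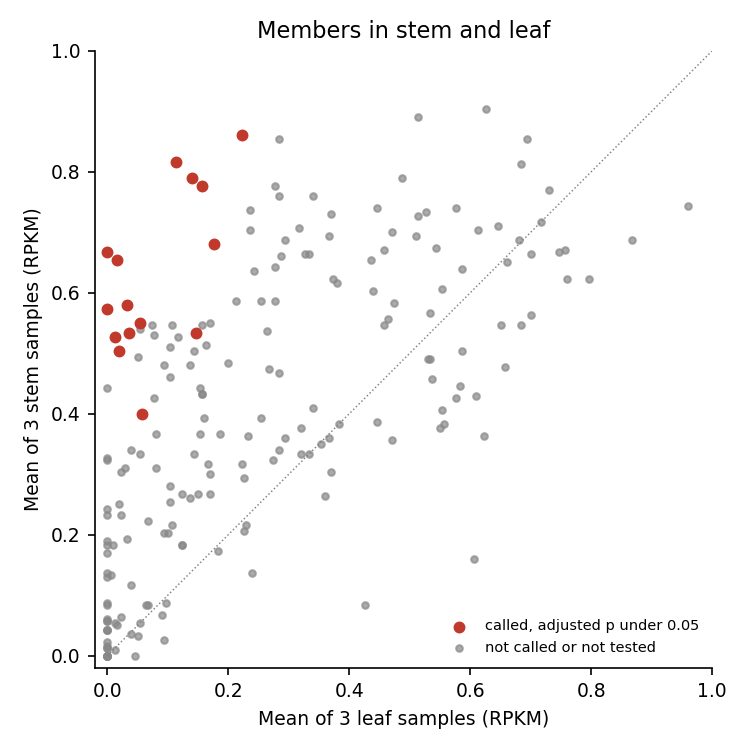
Mean of 3 stem samples (vertical) against mean of 3 leaf samples (horizontal) in RPKM for the 200 members, with a dotted line at equality. The 15 members called between stem and leaf (red) all lie above the line, at stem means of 0.400 to 0.860, and 149 of the 200 members lie above it.

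Fewer members were called when a sample was left out, except stem replicate 3, while the differences changed little. In all 6 omissions the share of tested members called higher in stem was below that of all unigenes tested. It was above that of tested unigenes at or under 1 RPKM in stem and leaf, except without leaf replicate 1. Without leaf replicate 1, 2 or 3, limma called 0, 2 and 1 of 151 tested members higher in stem (0%, 1.32% and 0.662%). At an unadjusted p under 0.05 it had 23, 27 and 22 members higher and 2, 1 and 0 lower in stem. Calls fell over all unigenes as well, to 2.04%, 2.11% and 2.21% higher in stem, against 5.59% with all 6 samples. The members' median log2 difference was 0.17, 0.17 and 0.22 in these fits, against 0.18 with all 6 samples. Without stem replicate 1, 2 or 3, limma called 3, 1 and 16 members higher in stem, against 2488 of 46140, 1376 of 46197 and 6920 of 46253 unigenes tested, and 6 of the 16 were among the 15. The 9 called members tested through their stem samples alone did not pass the filter with a stem sample left out. Their calls were therefore lost there without a test. The difference of PB.53580.1 was 0.69 without leaf replicate 1 and 0.67 without leaf replicate 3, with adjusted p-values of 0.0738 and 0.0798 from limma, and its adjusted p was under 0.05 in the other 14 alternatives. The count of members with a higher mean in stem moved little, from 145 to 158 over the same 6 omissions. With sample weights estimated by limma, 63 members were higher (40.4% of those tested) and 7 lower in stem, against 32.2% higher and 21.2% lower over all unigenes, and the estimation of the weights had not converged.

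The limits were met by 277 unigenes for root, against 937 for leaf and 16 for stem when the same limits were applied to those organs. The first 200 for root had a median lowest root value of 1.46 RPKM, against a median lowest leaf value of 10.9 RPKM for the first 200 for leaf. The median ratio of the highest to the lowest sample was 1.82 for root and 1.52 for leaf. In the leaf list stem was again mostly above the remaining organ, with a higher mean in stem than in root in 160 unigenes and a lower one in 33. More signal in stem than in the remaining organ was therefore not particular to the members. At a limit of 0.1 RPKM in place of 1 the counts were 156, 440 and 10 for root, leaf and stem, and at a limit of 15 RPKM divided by 4 they were 186, 934 and 19. These counts are descriptions, with no test of the difference between organs.

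Membership depended on single samples as well. Leaving out a sample can only relax the limits, so all 200 members still met them. Members not kept were outranked by other unigenes. Without root replicate 3, whose values were the lowest of the 3 roots in 54.5% of the members, 741 unigenes met the limits and 112 of the 200 members were still among the first 200. Without stem replicate 1, 497 unigenes met them and 108 members were kept, and without stem replicate 3 the numbers were 401 and 128. Without root replicate 1 they were 418 and 149. Leaving out a leaf sample changed least, with 288 to 300 unigenes and 185 to 193 members kept. The limit of 15 RPKM divided by 4 kept 25 of the members and a limit of 0.1 RPKM kept 12. Fewer than 200 unigenes met either of these limits, so both counts only restate the members' own levels. Ranking by the mean root value kept 165.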

How the data were processed

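The authors removed low-quality reads, aligned the clean pairs by HISAT2 2.05 against unigenes from their own PacBio data, and estimated expression with RSEM. The deposited RPKM values are rounded to 2 decimals, the smallest above 0 is 0.01, and no further normalization is stated. The methods of the study call the unit FPKM, its tables RPKM. RSEM divides reads among similar unigenes, so near-identical copies are uncertain. Depth is not given in the values. The study lists clean bases for each library but no mapped reads, so no counting interval is given. All 9 columns were assigned by the sample numbers in the labels.

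The members and tests were chosen with earlier results of these data known. Stem was tested against leaf on log2(RPKM + 1) by limma 3.58.1 (R 4.3.3), with an intensity trend, over 47493 unigenes above 0.1 RPKM in at least 3 of 6 samples. No fold change limit was set, since values capped at 1 RPKM cannot reach 2-fold on this scale. The step was tested on simulated data, in which the unigenes raised in stem lay at higher levels than the members. It was thus not tested for differences under 1 RPKM. The count model of the study was not run, because RPKM are not counts. Counts and plots were made in Python 3.11.15 (numpy 2.4.6, pandas 2.3.3, matplotlib 3.10.9).

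Unigenes were named by rule: the first 3 members, the last one and the first outside, the most and the least even in root, the largest root mean, the first listed at 0 in stem and leaf, and up to 2 members in each direction with the smallest adjusted p. Others are said to be named for their values. Alternatives were other pseudocounts, filters, scalings, limits and rankings, all 9 samples, no trend, sample weights, a replicate block and leaving out each sample.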

Additional observations from a re-analysis of the deposited data

How the results depend on the processing

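The root limits were met by 277 unigenes, by 156 when the limit was 0.1 RPKM and by 1004 when at least 2 of 3 root samples sufficed, and leaving out 1 sample gave 288 to 741. Of the 200 members, 12 were kept at 0.1 RPKM, 25 at 15 RPKM divided by 4 and 113 with at least 2 of 3 root samples, and leaving out 1 sample kept 108 to 193. Scaling kept 146 (quantile normalization) and 143 (median ratio).

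Between stem and leaf 6595 unigenes were called, 25334 with sample weights and 3033 to 11876 without 1 sample. The 15 members called, all higher in stem, became 4 with all 9 samples in the fit, 3 without the intensity trend, 70 with sample weights (63 higher and 7 lower), 8 with the replicate block and 0 to 16 without 1 sample. With all 9 samples 2.56% of the tested members were higher in stem, against 6.17% of all unigenes tested and 0.607% of those at or under 1 RPKM in stem and leaf. These shares were 1.92%, 6.02% and 0.184% without the trend, and 5.13%, 3.97% and 0.314% with the replicate block. Members thus lay below all unigenes with all 9 samples, without the trend and in each omission of 1 stem or leaf sample. The cause was not tested. A pseudocount of 0.1, with or without a fold change of at least 2, gave 15, of which 13 were among the 15, no filter gave 15 with 11 shared, the filter over all 9 samples the same 15, and the scalings 18 and 11. The replicate block called 5020 unigenes in all. Deviations of same-numbered stem and leaf samples correlated at 0.316, 0.121 and -0.0387 over 47493 unigenes. Stem replicate 1 correlated best with its own number, and stem replicates 2 and 3 with another number. With 3 samples per organ, these values cannot decide whether the numbers pair stem with leaf.

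Settings added after seeing the data gave 145 to 162 members with a higher mean in stem, 48 to 70 with all stem samples above all leaf samples and 1 to 7 with the reverse. The values hold no read counts, so precision under 1 RPKM is unknown.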
